A study of Caenorhabditis elegans with 2 samples.

Results

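Transfer RNA (tRNA) gene loci were examined for binding of the zinc finger transcription factor LSY-2 in whole Caenorhabditis elegans larvae. The members were all 612 nuclear genes of biotype tRNA in the WBcel235 annotation, out of 46890 nuclear genes of all kinds. A locus was counted as bound when the authors' thresholded LSY-2 peak list had at least 1 summit (the position of highest signal in a peak) in the window that starts 1000 bp before its 5′ end and ends 200 bp into or past the gene. By this rule 245 loci were bound and 367 were not. The peaks came from chromatin immunoprecipitation and sequencing of 2 biological replicates of a single group, L1 larvae (the first stage after hatching) of mixed sex that had been starved after bleaching. Both replicates were of strain OP367, which carries the unc-119(tm4063) allele and the wgIs367 transgene that makes LSY-2 with an eGFP tag. There was no second condition, the control behind the peak lists was not analysed here, and whole animals were used, so binding in a few cells cannot be told apart from weak binding in many.

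Transfer RNAs carry amino acids to the ribosome, and their genes are transcribed by RNA polymerase III. The promoter of a tRNA gene lies inside the gene, in an A box near its start and a B box near its end, which the factor TFIIIC recognises, and TFIIIB then recruits the polymerase just upstream. Worm tRNA genes are scattered through all chromosomes, as single genes or small groups, and each isotype (the amino acid carried) has many gene copies, often of identical sequence.

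The sequences that carry the main findings are those of the gene that held the second strongest peak outside coding promoters, of a gene with a summit just upstream, and of 3 identical sequence sets in which some copies were bound and others were not. All are from the RefSeq copy of the WBcel235 genome, 5′ to 3′ on the strand of the gene. The first is a stretch of 300 bp centred on the summit over C14B9.t2, a leucine tRNA gene, at chrIII:8109477-8109776 on the plus strand, with the gene in capitals. The others are whole genes, with capitals at the match to the A box core TGGCNNAGT or the B box core GTTCGANTC, at most 1 mismatch being allowed. They are the selenocysteine gene K11H12.t1 (chrIV:658181-658266, plus strand), the proline gene F46G11.t2 (chrX:5801211-5801282, minus strand), the threonine gene ZK563.t1 (chrX:3371422-3371493, minus strand) and the alanine gene ZK622.t1 (chrII:5292332-5292403, plus strand).
C14B9.t2 summit stretch: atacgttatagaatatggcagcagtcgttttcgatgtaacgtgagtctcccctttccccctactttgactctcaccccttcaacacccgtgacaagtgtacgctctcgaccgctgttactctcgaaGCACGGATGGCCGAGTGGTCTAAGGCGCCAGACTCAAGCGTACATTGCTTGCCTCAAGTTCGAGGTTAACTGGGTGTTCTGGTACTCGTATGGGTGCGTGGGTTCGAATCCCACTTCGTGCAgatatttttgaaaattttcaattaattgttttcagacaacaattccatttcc
K11H12.t1: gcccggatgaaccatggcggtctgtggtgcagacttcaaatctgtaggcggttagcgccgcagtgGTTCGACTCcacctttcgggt
F46G11.t2: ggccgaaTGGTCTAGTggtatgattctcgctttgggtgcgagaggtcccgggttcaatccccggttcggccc
ZK563.t1: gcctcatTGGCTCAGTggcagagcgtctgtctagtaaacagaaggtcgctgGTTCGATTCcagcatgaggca
ZK622.t1: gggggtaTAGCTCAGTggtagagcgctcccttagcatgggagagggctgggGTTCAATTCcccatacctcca

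LSY-2 summits lay at a large minority of tRNA loci. The bound share was 40% (245 of 612, 95% Wilson interval 36.2% to 44%). The same window held a summit at 21.1% of the 19973 protein-coding genes and at 22.6% of the 261 microRNA genes. The 346 snoRNA genes, small RNA genes of the nucleolus that in worms often lie in introns, gave 43.9%. Over all positions of the nuclear genome, each taken as a 5′ end on either strand, the share was 7.82%. These shares are a description of 1 peak list, and the differences between them were not tested, because neighbouring genes share summits and are not replicates. The intervals cover counting error only.

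Most of the summits sat in the tRNA genes or close to them. Relative to the 5′ end, the strongest summit of a bound locus had a median position of 18 bp, inside the gene, with quartiles at −40 and 39 bp. The summit was inside the gene in 133 of the 245 bound loci, within 100 bp of the gene in 204, and within 200 bp of the 5′ end in 212. The first 72 bp of the gene, about the length of a tRNA, held a summit at 22.2% of tRNA loci, against 0.676% of protein-coding genes and 0.492% of all genome positions. Protein-coding genes had summits in their own most populated 100 bp bin, from 200 to 101 bp upstream, in 5.4% of cases, and in the first 100 bp downstream in 0.816%. The profile of summits around the 5′ ends shows the 2 gene classes side by side.

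**Figure D1:**
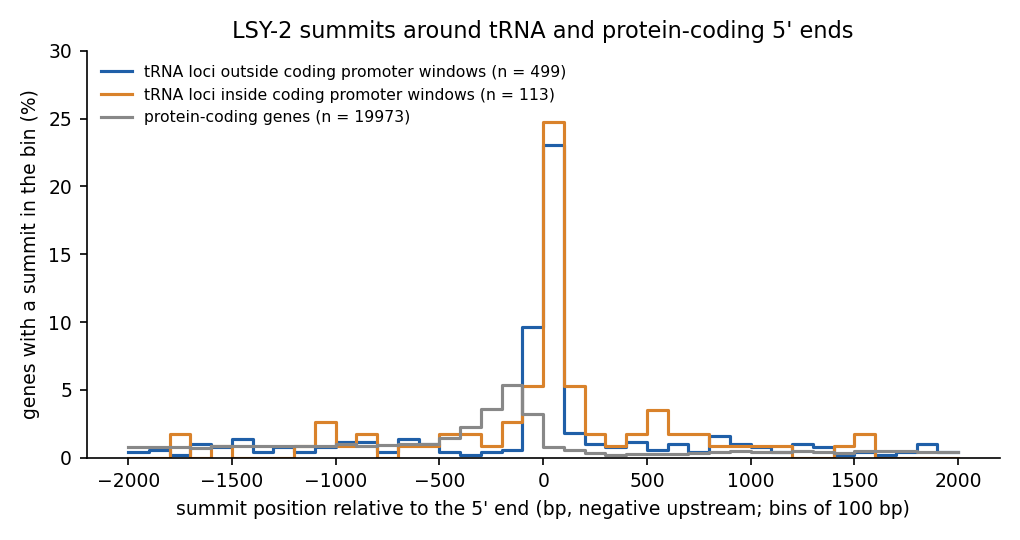
Share of genes (y axis, %) with an LSY-2 summit in each 100 bp bin from 2000 bp upstream to 2000 bp downstream of the 5′ end (x axis), for tRNA loci outside and inside coding promoter windows and for protein-coding genes. Both tRNA curves are highest in the bin from 0 to 99 bp, at 23% and 24.8%, where the protein-coding curve is at 0.816%.

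Within the gene, the summits fell into 2 bands. Among all 245 bound loci, 83 had the strongest summit 10 to 39 bp from the 5′ end and 38 had it at 50 to 69 bp, and 3 had it at 40 to 49 bp. Among the 186 loci that shared their summit with no other tRNA locus, the numbers were 78, 34 and 3. Intronic and intergenic loci of that kind both showed the 2 bands, with 36, 3 and 19 of 96 intronic loci and 41, 0 and 14 of 86 intergenic loci at 10 to 39, 40 to 49 and 50 to 69 bp. The A box core started at a median of base 8 and the B box core at base 53 of the gene. Over the 150 bound loci with both cores and a summit within 200 bp of the 5′ end, the summit lay a median of 12.5 bp downstream of the centre of the A box core and 36 bp upstream of that of the B box core, and it was nearer to the A box core in 100. The best match at any place in the gene was taken. In tryptophan genes such as B0523.t1 the B box match started at base 25, so it need not be the B box there. Most tRNA genes have sequence that recurs in the genome: 211 of the 245 bound genes held no 32-mer that occurred once in the nuclear genome, and 263 of the 367 unbound ones held none. The part of repeated sequence in the 2 bands was not tested. Among loci that shared no summit, the 29 with a sequence found in 1 locus had 9, 1 and 2 summits at the 3 positions, and the 157 with a sequence found in several loci had 69, 2 and 32.

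**Figure D2:**
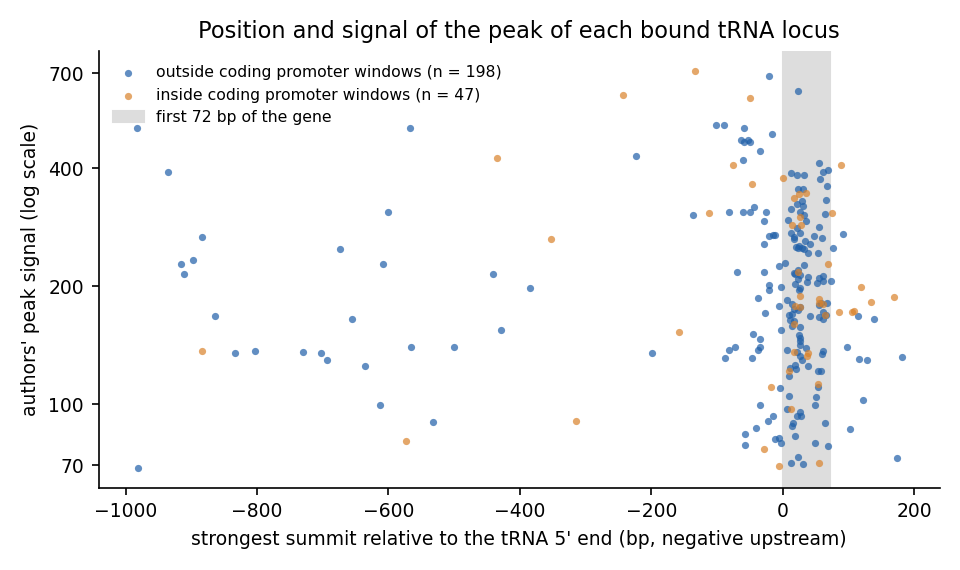
Each point is a bound tRNA locus, with its strongest summit relative to the 5′ end (x axis, bp) and the authors' peak signal (y axis, log scale), by whether the locus lies outside or inside a coding promoter window. The points gather in the shaded first 72 bp of the gene, and 33 of the 245 lie more than 200 bp away.

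The remaining summits were farther upstream, and many of those loci had a tRNA neighbour. Of the 33 loci whose strongest summit was over 200 bp away, 26 had another tRNA 5′ end within 1000 bp, and 5 had a second, nearer summit within 200 bp. The locus nearest to the upstream edge of the window was K11H3.t2, a serine gene, with its strongest summit at −983 bp and a second one at 13 bp. Nearest to the downstream edge was C02D4.t1, at 181 bp with a signal of 132. Just outside the window, R11.t3 had its nearest summit at −1004 bp and F02D10.t1 at 251 bp, and both counted as unbound.

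The 245 bound loci were served by 214 different peaks, since groups of tRNA genes shared them. Of these peaks, 186 served 1 locus, 25 served 2 and 3 served 3. The 28 shared peaks served 59 loci. In 14 of them the loci were on both strands, and in 10 the summit lay between a pair of 5′ ends that point away from each other. In 19 all the loci were of the same isotype. Loci with another tRNA 5′ end within 1000 bp were bound in 36.1% of cases (83 of 230), and loci with none in 42.4% (162 of 382). The Wilson intervals of these shares, 30.2% to 42.5% and 37.6% to 47.4%, overlapped.

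Loci inside coding promoter windows were kept apart, because a summit there can belong to the coding gene. The window of the same size around a coding 5′ end took in the 5′ end of 113 tRNA loci, of which 47, or 41.6%, were bound. Outside such windows, 198 of 499 loci, or 39.7%, were bound, and the summit itself lay in a coding window at 6 of these 198. Inside the windows the summit was in a coding window at 42 of 47. The median distance to the tRNA 5′ end was 17.5 bp outside and 23 bp inside, and the median signal 186 and 183. The summit was in the tRNA gene at 25 of the 47 bound loci inside and at 108 of the 198 outside.

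Bound loci were found on every nuclear chromosome. X carried 276 of the 612 loci, or 45.1%, on 17.7% of the nuclear bases, and 102 of these, or 37.0%, were bound (Wilson interval 31.5% to 42.8%). On the autosomes 143 of 336 loci, or 42.6%, were bound (37.4% to 47.9%), so the 2 intervals overlapped. With loci in coding windows set aside, the shares were 39.6% on X (93 of 235) and 39.8% on the autosomes (105 of 264). Summits as such were sparser on X, where 6.71% of all positions had a summit in the same window, against 8.05% on the autosomes.

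Among the autosomes, chromosome III had the largest share and chromosome V the smallest. The bound loci numbered 39 of 64 on III (60.9%, 48.7% to 71.9%) and 22 of 78 on V (28.2%, 19.4% to 39%), and these intervals did not overlap. The difference was not tested, and the same 2 chromosomes were also at the ends for all genome positions, with 11% on III and 5.47% on V. Chromosomes I, II and IV lay between, with 27 of 66, 26 of 57 and 29 of 71 loci bound. The bar chart by chromosome shows that the share of tRNA loci exceeded that of all positions on each of the 6 chromosomes.

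**Figure D3:**
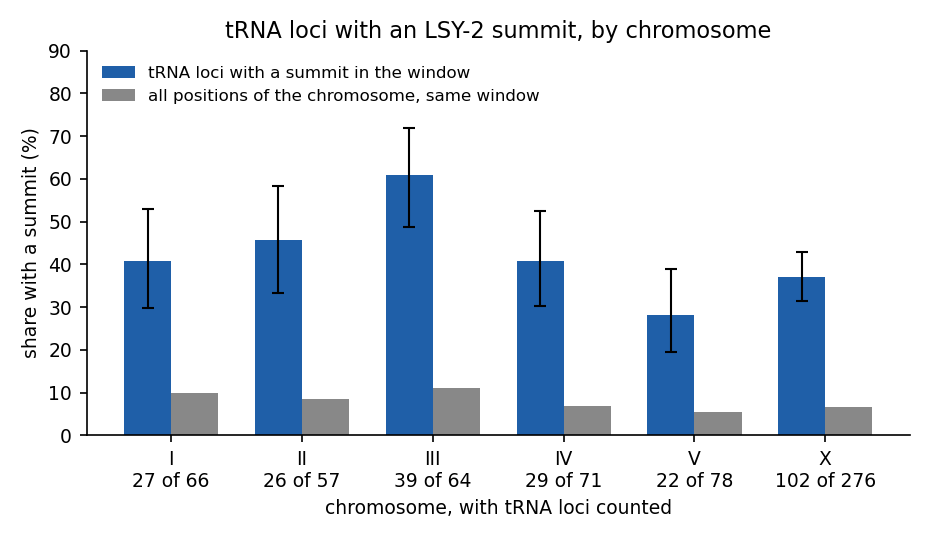
Share of tRNA loci with a summit in the window (left bars, with 95% Wilson intervals) and share of all positions of that chromosome with one (right bars, %) on each nuclear chromosome, with the loci bound and counted below. The tRNA share runs from 28.2% on V to 60.9% on III, where the share of all positions runs from 5.47% to 11%.

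The bound shares of intronic and intergenic loci were close to each other. In introns of protein-coding genes lay 283 loci, of which 115, or 40.6%, were bound, and of 319 intergenic loci 126, or 39.5%, were. The Wilson intervals, 35.1% to 46.4% and 34.3% to 45%, covered nearly the same range. Another 10 loci overlapped an exon of a coding gene outside its coding sequence, and 4 of them were bound. Outside coding windows the shares were 40.3% in introns (106 of 263) and 39.1% between genes (90 of 230). Intronic loci on the strand of their host were bound in 65 of 160 cases and those on the opposite strand in 50 of 122, or 40.6% and 41%. The median signal was 199 at intronic and 177 at intergenic loci, against quartiles of 135 and 282 over all bound loci.

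The intronic loci lay in 219 host genes (overlapping hosts of a locus counted together), and 98 of these had at least 1 bound locus. Of 46 hosts with several tRNA loci, some had each locus bound by the window rule and others had none. All 3 loci were bound in brd-1, whose product is the worm relative of the BRCA1 partner BARD1, and in spe-9, a gene needed for sperm function. In brd-1, K04C2.t1, whose 5′ end was in a coding window, was bound only by a summit at −157 bp, which lay inside K04C2.t2. The strongest summit of K04C2.t2 was at −898 bp in a coding window, and its nearest was at 32 bp. In spe-9, C17D12.t1 was bound only by a summit at −655 bp, which lay inside C17D12.t2. In ajm-1, an apical junction gene, 3 of 5 loci were bound. No locus was bound among the 5 in K01A12.3 or the 3 in pash-1, which encodes a partner of the microRNA processing enzyme Drosha. In the 400 bp around each tRNA gene, 15.7% to 36.9% of 32-mers were unique in the genome at the pash-1 loci. At the K01A12.3 loci, 75.9% to 84.6% were. All 19 tRNA loci with under 50% unique 32-mers were unbound. The part of uniqueness in the lack of summits at pash-1 was not tested.

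Peaks at tRNA loci were spread over the ranks of the whole list but absent from its top, their ranks running from 640 to 6841 of 6850. Signal at bound loci ran from 68.9 to 711 with a median of 185, where the list as a whole had a median of 169 and reached 24270. No peak with its summit within 100 bp of a tRNA gene had a signal of 1000 or more, whereas 392 of the 6649 other peaks did. Such tRNA peaks numbered 201, or 2.93% of the 6850, and 164 of them lay outside coding windows, where they made up 4.67% of the 3510 peaks. There their median signal was 183, above the 131 of the other 3346 peaks. Inside coding windows the order turned, with a median of 181 at the 37 tRNA peaks and 245 at the other 3303.

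Outside coding windows, the first locus by signal was C37A2.t1, a cysteine gene in an intron of the cyclin E gene cye-1, at chrI:6781803-6781874 on the plus strand. Its peak had a pooled signal of 689, with 316 in replicate 1 and 367 in replicate 2, ranked 667 in the list, and had its summit at −21 bp. C14B9.t2, a leucine gene of 122 bp at chrIII:8109603-8109724 in an intron of C14B9.3, had a signal of 632, with 281 and 342 in the replicates and the summit at 24 bp. Both loci had the higher signal in replicate 2, and the order of the 2 loci was the same in each replicate. F46G11.t1 and F46G11.t2, a pair of proline genes that point away from each other between coding genes on X, shared a peak of 517 (232 and 290 in the replicates) whose summit lay between them, at −89 and −101 bp.

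K11H12.t1, the single gene for selenocysteine tRNA, followed at 508. Selenocysteine tRNA delivers the amino acid that is read at certain stop codons, and in vertebrates its gene depends on promoter elements upstream of the gene. Its peak had signals of 248 and 263 in replicates 1 and 2 and its summit at −59 bp, outside the gene, in an intron of K11H12.8. The 5′ end of K11H12.t1 lay outside the windows of coding genes but inside that of a coding transcript. Whether the summit belongs to that transcript was not tested. C33G3.t2, a lysine gene on X, had 489 with the summit at −16 bp. A glutamate and a glycine gene on X that point away from each other, M02F4.t2 and M02F4.t1, shared 472 at −53 and −64 bp. The proline genes W09D6.t1 and W09D6.t2 shared 467 in an intron of rsa-2, a gene of spindle assembly, at −59 and −49 bp. Of these 10 loci, 9 had the summit upstream of the gene, although 133 of all 245 bound loci had it inside. The F46G11, M02F4 and W09D6 pairs each shared 1 summit between 5′ ends that point away from each other. Such a summit is upstream of both genes and was counted for each.

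On the chromosomes not yet named, the strongest loci outside coding windows with a summit within 200 bp were weaker. On II it was C27A2.t1, an isoleucine gene in an intron of C27A2.12, with a signal of 391 (209 and 182 in the replicates) and a summit at 12 bp. On V it was K06A4.t1, an alanine gene in an intron of the sugar transporter gene swt-5, with 294 (124 and 163) at −28 bp. Inside coding windows, C28G1.t1, a glutamate gene on X that overlaps an exon of C28G1.2, had the highest signal of any tRNA locus, 711 (322 and 390), with its summit at −134 bp in a coding window. Loci inside such windows also exceeded the loci just named on II and V, where Y38E10A.t1 had 618 at −243 bp and F57F5.t1 had 378 at 1 bp.

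Nearly every tRNA peak had a region in both replicates, as did nearly every peak away from tRNA genes, in a list that was made from both. Of the 214 tRNA peaks, 208 had a region over the summit in both replicate lists. So had 6551 of the 6649 peaks with no tRNA gene within 100 bp. These 2 sets overlap, because the window also takes in summits over 100 bp from a tRNA gene. Across the 208 tRNA peaks, replicate 2 over replicate 1 came to a median log2 ratio of 0.21, with an SD of 0.40. Of these 208, 145 were higher in replicate 2. Across the 6551 peaks with no tRNA gene within 100 bp and a region in both lists, the median was 0.20 and the SD 0.52. The SD of 0.40 at tRNA peaks is 1.32-fold. It is a spread of the replicate ratio over peaks and not the error of a difference between 2 pooled signals. It therefore does not settle the order of C37A2.t1, C14B9.t2 and F46G11.t1. The 6850 strongest regions of replicate 1 alone bound 249 loci and those of replicate 2 alone 257. Of the 245 bound loci, 237 were also bound in the list of replicate 1, 229 in that of replicate 2, and 221 in both.

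**Figure D4:**
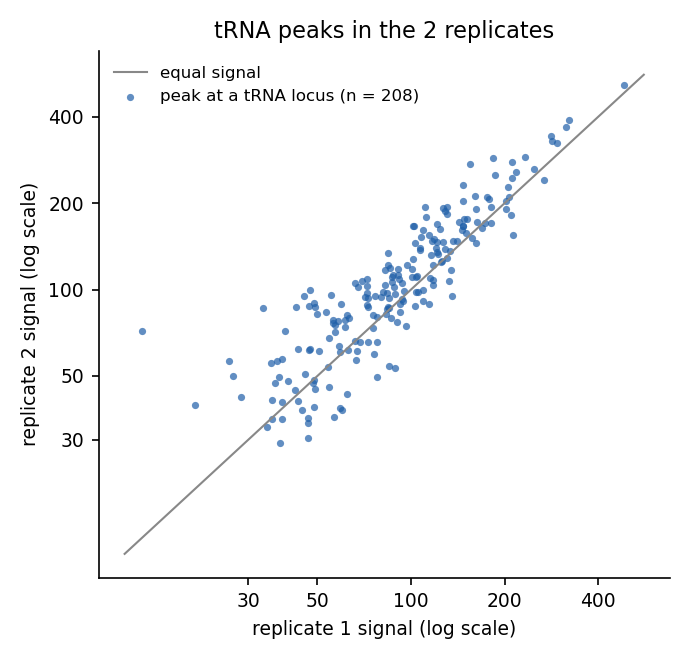
Signal in replicate 1 (x axis) and replicate 2 (y axis) of the 208 peaks at tRNA loci with a region over the summit in both replicate lists, on log scales, with a line of equal signal. The points follow the line, with 145 of 208 above it.

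All isotypes were among the bound loci. RefSeq gave the isotype of 607 loci, and 5 had none and were all unbound. The isotypes with most bound loci were glycine with 21 of 55 (38.2%), arginine with 19 of 44 (43.2%) and glutamate with 19 of 41 (46.3%). For isotypes of at least 10 loci, the share ran from 25% for histidine (5 of 20) and tryptophan (3 of 12) to 64.3% for phenylalanine (9 of 14). Each of these Wilson intervals included the overall 40%, and no isotype was tested against another. Among these isotypes the median signal was highest at serine genes, 287, and proline genes, 281, and lowest at methionine genes, 110, where 11 of 20 loci were bound.

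**Figure D5:**
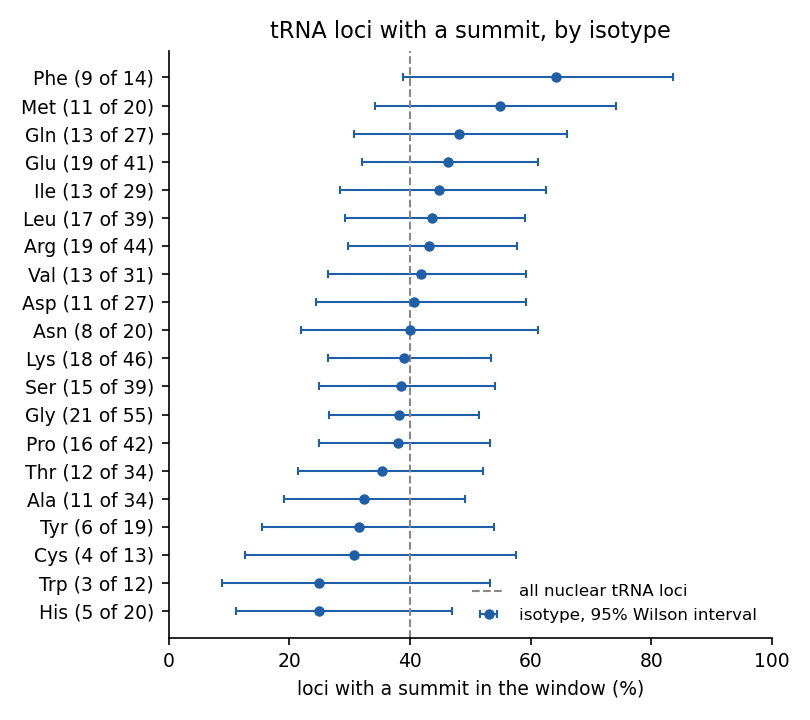
Share of loci with a summit in the window (x axis, %) for each isotype of at least 10 loci, with 95% Wilson intervals and the loci bound and counted beside the name. The dashed line is the share over all nuclear tRNA loci, 40%, which every interval includes.

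Identical genes differed in whether their window held a summit. The 612 loci held 200 different gene sequences, of which 57 occurred in several loci and covered 469 of them. In 42 of these 57 sets some copies were bound and others were not, 191 and 240 loci in all. In 7 sets every copy was bound and in 8 none was. The same gene sequence thus occurred both with and without a called peak in its window, which reaches 1000 bp upstream of the gene.

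The largest such sets were 29 glycine genes, 12 of them bound, and 25 lysine genes, 11 of them bound, and both had copies on chromosome I, from which no sequence is shown. Of the sets with no copy there, the proline set printed above was the largest, and the threonine and alanine sets printed with it tied at 15 copies with a glutamine set, of which 8 were bound and which is not shown. Of the 24 identical proline genes, 8 were bound, with signals from 130 at T22F3.t2 to 517 at the F46G11 pair, and 16 were not. The summit lay at −694 bp at T22F3.t2, −935 bp at R04D3.t3 and 134 bp at H06A10.t1, whose 5′ end was in a coding window. At the other bound copies it lay from −101 to −21 bp, so no summit was inside the 72 bp gene. C48C5.t1 and C48C5.t3, an unbound pair on X with the same sequence, had a pooled region of 56.1, under the lowest thresholded signal of 68.8. Of the 15 identical threonine genes, 6 were bound, led by ZK563.t1 at 265 with its summit at 17 bp, and 9 were not. Of the 6, F25F6.t2 had its summit at −730 bp, inside the glutamate gene F25F6.t1. Of the 9 unbound copies, R11B5.t1 had no pooled region in its window either, while ZK994.t3 had one of 49.3. Of the 15 alanine genes, 6 were bound, led by ZK622.t1 at 347 with its summit at 36 bp. That set also held T08A9.t1, the unbound locus closest to the threshold, with a pooled region of 68.2.

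The bound share was lowest where the gene sequence occurred once. It was 25.2% for the 143 loci of that kind (36 bound, 18.8% to 32.9%), 46.7% for sequences in 2 to 9 loci (71 of 152, 39% to 54.6%) and 43.5% for those in 10 or more (138 of 317, 38.2% to 49%). The first interval did not overlap the others, and the difference was not tested. In the 400 bp around the gene, a median of 85.4% of 32-mers were unique in the genome at bound and at unbound loci alike. The bound share was 12.5% where all of these 32-mers were unique (2 of 16, 3.5% to 36%), 25.7% from 90% to under 100% unique (18 of 70, 16.9% to 37%) and 44.4% from 50% to under 90% (225 of 507, 40.1% to 48.7%). The 19 loci with under 50% unique 32-mers were all unbound, which allows a share of up to 16.8% by the Wilson interval. The 400 bp include the gene itself, and every 32-mer inside a gene with an identical copy recurs in the genome. F14F7.t1, a sequence in 3 loci, thus had 88.9% unique 32-mers. The shares by uniqueness are therefore not separate from those by copy number. The part of uniqueness in the shares by copy number was not tested.

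The promoter cores inside the gene were found at most loci, bound or not. The B box core GTTCGANTC was present within 1 mismatch on the gene's own strand in 542 of 612 loci, or 88.6%, and exactly in 286. A match was counted at any place in the gene, as at base 25 in the tryptophan gene B0523.t1. Among all 72 bp stretches of the genome, searched on both strands, 3.74% held it within 1 mismatch. The A box core TGGCNNAGT was present within 1 mismatch in 468 loci, or 76.5%, against 10.7% of such stretches. Loci with an exact B box were bound in 38.8% of cases (111 of 286), those with 1 mismatch in 43.8% (112 of 256) and those with no match in 31.4% (22 of 70, 21.8% to 43%). The interval of the last overlapped those of the others, 33.3% to 44.6% with an exact match and 37.8% to 49.9% with 1 mismatch.

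Unbound loci often had no region in any list. Of the 367, 107, or 29.2%, had a region of the pooled list in the window, with signals from 13.7 to 68.2 and a median of 35.6, and 64 of those had the summit within 100 bp of the gene. In 84 unbound loci both replicate lists had a region in the window. In 191 no list had one, the pooled and both replicate lists included. After T08A9.t1, the strongest unbound loci were Y7A5A.t1 at 67.7, F02E11.t1 at 64.4 and M163.t2 at 64.2, all by the pooled list.

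The genes of the RNA polymerase III machinery were examined by the same window, and most of their summits lay upstream of the 5′ end. Of 11 subunit genes found by name, 7 had a promoter summit, or 63.6%, against 21.1% of all protein-coding genes, at a median of −233 bp. Of the 7, 5 are subunits shared with the other RNA polymerases (rpb-5, rpb-6, rpb-8, rpb-10 and rpb-12). Among them, rpb-10 had a signal of 5050. The others were rpac-19 with 223 and rpc-1, which encodes the largest subunit, with 338. rpc-2, rpc-11, rpc-25 and rpac-40 had none, so rpc-1 was the only rpc gene found with a summit. The 63.6% thus rests mainly on shared subunits. Of 13 genes of initiation and repression, 5, or 38.5%, had one, led by mafr-1, the MAF1 repressor of RNA polymerase III, at 8580 and −266 bp. The others were the TFIIIC gene tftc-1 at 353 and the snpc genes snpc-3.4 at 6354, snpc-4 at 340 and snpc-1.1 at 242. The 38.5% thus rests mainly on snpc genes, while snpc-1.2, snpc-1.3, snpc-3.1 and snpc-3.2 had no summit. The TFIIIB genes brf-1 and tbp-1 and the TFIIIC genes tftc-3 and tftc-5 had none. Of 22 genes of tRNA processing and export, 11 had one, among them popl-7, a ribonuclease P protein gene, at 718, and trm-1, a tRNA methyltransferase gene, at 472. hoe-1, the gene of the enzyme that trims the 3′ ends of tRNAs, had none.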

How the data were processed

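Peaks of eGFP-tagged LSY-2 were available for 2 biological replicates in 1 group. The README texts deposited with the files state that the list of each replicate and the pooled list came from alignments and a control, and the thresholded list of 6850 peaks from these by irreproducible discovery rate. Replicates are biological per the labels. Aligner, peak caller and depth per sample: not given in the sources used here, so no counting error of signal can be had. The authors' signal value per peak was used as deposited, its scaling not being stated. The deposited q-values are −log10 of q, 4.19 for every thresholded peak, and did not rank them. Coordinates are 1-based in ce11, which is WBcel235, and the ce10 lists were not used.

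Genes came from Ensembl release 115, tRNA isotypes and sequence from RefSeq, whose tRNA spans matched at all 612 loci. The 22 mitochondrial tRNA genes were left out. A locus took the strongest summit in its window. Intron means inside a protein-coding gene and touching no exon. Motif and 32-mer searches and the window script were run in Python 3.11.15 with NumPy 2.4.6, pandas 2.3.3 and SciPy 1.17.1, and the window script was tested on simulated data. The list names matched 11 of 18, 13 of 18 and 22 of 27 genes, and U6 genes were not analysed here. No test was made, because there is 1 group and loci share summits, so the values describe this peak list. The members and lists were chosen with earlier results of these data known. Named loci were the 10 strongest outside coding windows within 200 bp, the strongest per chromosome and inside coding windows, those at window edges, the strongest unbound ones, and 3 identical sets that held both kinds, the largest with no copy on chromosome I, ties broken by the letters of the sequence. Hosts and single list genes were chosen after their values were seen. Alternatives were other windows, the stronger 3425 peaks, each replicate alone, the nearest 5′ end only, peak overlap and transcript 5′ ends.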

Additional observations from a re-analysis of the deposited data

How the results depend on the processing

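42 of 71 alternative values stayed within the interval or spread of the value reported. The shares depended on the window and the list. With 500 bp upstream and 100 bp downstream, 34.6% of all loci were bound, 34.3% outside coding windows, 30.1% on X, 38.4% on autosomes, 35% in introns and 34.2% between genes. With 2000 bp and 500 bp the shares were 45.6% of all loci, 45.3% outside coding windows, 44.6% on X and 46.4% on autosomes. The share was then 46.7% between genes and 44.5% in introns, so that the order of these 2 places turned. It also turned without replicate 1, with 42.3% between genes and 41.3% in introns. With 200 bp on either side the shares were 35.5% of all, 35.1% outside coding windows, 31.5% on X and 38.7% on autosomes, with a median distance of 24 bp. Among the stronger 3425 peaks, 23.4% of all loci were bound, 22.4% outside and 27.4% inside coding windows, 18.5% on X, 27.4% on autosomes, 25.4% in introns and 21.3% between genes, with a median signal of 266. With a summit counted for its closest coding or tRNA 5′ end and no other, the shares were 34.3% of all, 34.1% outside coding windows, 30.1% on X, 37.8% on autosomes and 32.6% between genes, and the median distance was 24 bp. Where the peak interval had to overlap the gene, 34.6% of loci were bound. Leaving out either replicate gave 40.7% to 42% of all loci, and a median signal of 87.9 to 102, on the scale of a single replicate. Chosen after seeing the data, leaving out loci with under 50% unique 32-mers gave 41.3%, loci with a B box match 41.1%, and loci with a summit of their own a median distance of 23.5 bp. No paired analysis was possible because there is 1 group. Depth is unknown, so no counting error of signal is given, and a locus without a listed region is not shown to lack signal.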

Other observations

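Other short RNA genes of RNA polymerase III were searched with the same window. The gene of the RNA subunit of ribonuclease P, rpr-1, which cuts the 5′ leaders of tRNA precursors, had a summit at 65 bp with a signal of 326. mrpr-1, the RNA gene of the related ribonuclease MRP, had one at −8 bp with a signal of 182. The Y RNA gene yrn-1 had none, and neither had any of the 16 genes of 5S ribosomal RNA, 15 of which lie on chromosome V. In all 2 of 19 such genes, or 10.5%, were bound, against 245 of 612 tRNA loci, or 40%, and 7.82% of all genome positions. The differences were not tested. How far the 5S genes consist of repeated sequence was not examined, so their lack of a summit is not shown to be a lack of binding.

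Of the 9 tRNA genes longer than 90 bp, 3 were bound. All 3 were leucine genes and had the summit close to the same place, at 24 bp in C14B9.t2, 24 bp in ZK822.t1 and 22 bp in C04A11.t1, with signals of 632, 251 and 384. The 6 others, 5 of them leucine genes, had no summit, among them B0285.t1 and F42F12.t1, both of 120 bp. These loci were picked after their values were seen.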
